A study of Mus musculus with 2 samples.

Results

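A set of 10 early response genes was followed in heart cells of old p16-FDR mice, named here by their symbols: the AP-1 genes Fos, Fosb, Jun, Junb, Jund and Atf3, and Egr1, Nr4a1, Ier3 and Zfp36. These 10 genes were taken as a fixed list from the 15247 genes of the deposited table, and all 10 were present and passed the filter on low values in every comparison. Both samples belong to 1 group: mCherry+ cells sorted by flow cytometry from hearts of C57BL/6 mice aged 20 to 22 months. All of these mice carry the p16-FDR allele, in which a FLP recombinase and a diphtheria toxin receptor fused to mCherry report on the p16 gene, so every cell here comes from a reporter animal and from the mCherry+ gate. The design holds no treatment, no other age and no mCherry-negative cells.

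AP-1 is a dimer of one Jun protein with a Fos, Jun or ATF protein that binds a short DNA element and switches on genes of growth, matrix turnover and inflammation. Most of its genes are immediate early genes: growth factors, stress kinases or tissue dissociation raise their RNA within minutes through factors that already sit on the promoter, and the RNA is short-lived. Cdkn1a encodes the cell cycle inhibitor p21 and Cdkn2b the inhibitor p15, both of which rise in senescent cells, and AP-1 is known as a regulator of the gene programme of senescent fibroblasts.

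The promoters of 3 AP-1 genes are shown because Fos and Junb gave the highest correlation of any pair in Heart1 fibroblasts and Jun passed the tests described below. Each run is the 250 bases before the RefSeq start of the gene (RefSeq, GRCm38.p6), written 5′ to 3′ on the strand of the gene. Capitals mark TGACG, the core of the element bound by ATF and CREB proteins, in Fos and Junb, and TGACATCA, a variant of the AP-1 element, in Jun. The Fos window lies on the plus strand at chr12:85473640-85473889, that of Junb on the minus strand at chr8:84978749-84978998 and that of Jun on the minus strand at chr4:95052223-95052472.
Fos: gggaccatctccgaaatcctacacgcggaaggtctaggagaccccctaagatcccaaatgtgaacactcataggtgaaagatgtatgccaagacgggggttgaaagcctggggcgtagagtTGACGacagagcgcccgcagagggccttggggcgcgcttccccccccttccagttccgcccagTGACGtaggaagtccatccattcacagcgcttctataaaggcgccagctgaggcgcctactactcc
Junb: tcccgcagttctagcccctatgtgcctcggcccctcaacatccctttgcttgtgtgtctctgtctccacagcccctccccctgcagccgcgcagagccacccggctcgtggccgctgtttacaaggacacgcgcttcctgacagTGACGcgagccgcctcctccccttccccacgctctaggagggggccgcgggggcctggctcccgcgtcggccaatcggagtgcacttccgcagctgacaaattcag
Jun: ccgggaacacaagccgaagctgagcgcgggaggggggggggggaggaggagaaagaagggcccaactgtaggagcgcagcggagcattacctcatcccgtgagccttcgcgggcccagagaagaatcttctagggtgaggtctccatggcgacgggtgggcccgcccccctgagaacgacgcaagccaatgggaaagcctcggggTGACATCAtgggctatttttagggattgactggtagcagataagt
A window was available for 9 of the 10 genes, all but Egr1, and all 32851 windows of the same length served as the background. Motifs were searched on both strands, with overlaps between motifs allowed. TGACG and TGACATCA were added with the sequences in view, so their counts beside all windows are a description and no test. TGACG was found in 5 of 9 windows, against 17.8% of all windows, and starts 129 and 66 bases before the start of Fos and 106 bases before that of Junb. TGACATCA was found in the Jun window alone of the 9, starting 45 bases before the start, against 2.93% of all windows. GCGGGGGCG, the element of Egr1, was found in 3 of 9 windows (Fosb, Nr4a1 and Zfp36), against 2.57% of all windows. The CArG box, the element of serum response factor, was found in the Zfp36 window alone as CCATAAAAGG, 58 bases before the start, against 1.47% of all windows. Bases outside the windows and the promoter of Egr1 were not searched, so elements there would be missed. The consensus AP-1 element TGANTCA and the full element TGACGTCA had 0 matches in the 9 windows, against 6.75% and 1.55% of all windows. GGGCGG was found in 7 windows, the kappaB motif in 3, CCAAT in 3 and TATAAA in 1, against 32.7%, 7.25%, 33.8% and 12.4% of all windows. The RefSeq start of Jund lies upstream of the start of the GENCODE gene, and those of Atf3, Nr4a1 and Zfp36 lie within the GENCODE gene, so these 4 windows hold only 1 of several annotated starts.

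The prefix of a cell name gives its library, Heart1 or Heart2. Heart1 held 266 cells with 3304045 unique molecular identifiers (UMIs, each a counted RNA molecule), and Heart2 held 1160 cells with 10632723 UMIs; 0 cell barcodes were shared. Cells were gated by markers. A fibroblast had UMIs of at least 4 of 6 fibroblast genes, such as Col1a1 and Pdgfra, and of at most 1 of 6 macrophage genes, such as C1qa and Csf1r, and a macrophage the reverse. The gate gave 204 fibroblasts in Heart1 and 931 in Heart2, and 37 macrophages in Heart1 and 204 in Heart2. The 6 macrophage genes summed to 8.57 and 15.7 CPM (UMIs per 1000000 UMIs of the pooled cells) in fibroblasts of Heart1 and Heart2, and the 6 fibroblast genes to 17.3 and 36.2 CPM in macrophages. In fibroblasts of Heart1 and Heart2 and then macrophages of both, 5 endothelial genes summed to 7.45, 5.91, 11.5 and 9.42 CPM, with Cldn5 at 0 throughout. Of 4 T cell genes, Cd3d, Cd3e and Cd3g were at 0 throughout, and the list summed to at most 0.373 CPM. Mural genes, 4 in the table, summed to 102 and 55.7 CPM in fibroblasts of Heart1 and Heart2, and at least 2 of them were found in 15.7% and 6.66% of these cells. Cardiomyocyte genes summed to 45.8 and 18.2 CPM in fibroblasts and to 129.7 and 93.2 CPM in macrophages, and at least 2 of 5 were found in 18.9% and 14.7% of macrophages. B cell genes summed to 196 and 337 CPM in macrophages and neutrophil genes to 31.7 and 28.3 CPM. Their part in the results was not tested. Median depth was 11856 and 8714 UMIs in fibroblasts of Heart1 and Heart2, and 8133 and 9568.5 in macrophages.

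All 10 genes were detected in both classes of both libraries. Levels are CPM of UMIs summed over the cells of a class. The kit reads the 3′ end, so a molecule gives 1 UMI whatever its length and levels were not divided by length. Intervals are exact 95% intervals that cover counting error only, and reads from free RNA were not separated. Whether the libraries are different animals is not stated in the labels. A p-value describes no more than how a difference within libraries varies from library to library, with that spread pooled over genes. The spread may be technical.

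**Figure D1:**
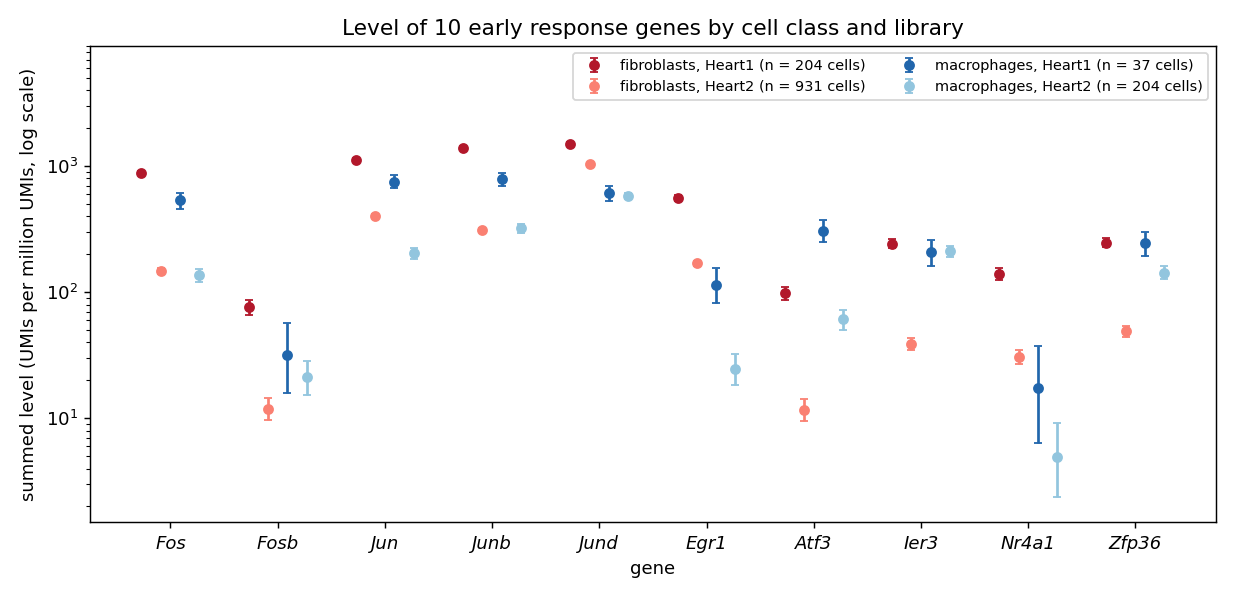
Summed level of each gene in CPM (log axis) in fibroblasts and macrophages of each library, with exact 95% Poisson intervals that cover counting error only. Jund stood at 1511 and 1034 CPM in fibroblasts of Heart1 and Heart2, while Atf3 was higher in macrophages than in fibroblasts of the same library.

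Among the Fos proteins, which bind DNA only as partners of Jun proteins, Fos was much the more abundant RNA. Fos had 879.8 CPM in Heart1 fibroblasts and 147 CPM in Heart2 fibroblasts, against 536 and 136 CPM in macrophages of the same libraries. Fosb had 76.0 and 11.9 CPM in fibroblasts and 31.7 and 21.3 CPM in macrophages. A Fos UMI was present in 54.4% of Heart1 fibroblasts (111 of 204, 47.3 to 61.4%) and 15.3% of Heart2 fibroblasts (142 of 931, 13.0 to 17.7%), against 56.8% and 31.4% of macrophages. With every cell thinned to 3000 UMIs, which left out no cell, these shares were 43.1% and 9.35% of fibroblasts, against 48.6% and 20.1% of macrophages. In Heart2, the share of cells with Fos was therefore lower in fibroblasts while the summed level was close to that of macrophages. Neither gene passed the test between the classes: the log2 difference of fibroblasts to macrophages was 0.41 ± 0.19 (SE) for Fos and 0.25 ± 0.32 for Fosb (limma with Benjamini-Hochberg adjustment, adjusted p = 0.0902 and 0.572).

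The Jun genes were the most abundant of the 10, except in Heart2 macrophages, where Ier3 (212 CPM) stood just above Jun (204 CPM). Jund, the Jun gene that most cells keep on without a stimulus, had 1511 and 1034 CPM in fibroblasts of Heart1 and Heart2, against 614 and 582 CPM in macrophages. It was found in 99.5% and 98.2% of fibroblasts and 94.6% and 90.2% of macrophages. Jun, the founding member, had 1118 and 402 CPM in fibroblasts, against 755 and 204 CPM in macrophages. Junb, which can also oppose Jun, had 1404 and 313 CPM in fibroblasts, against 792 and 321 CPM in macrophages. Jund and Jun were higher in fibroblasts of both libraries, and Junb in fibroblasts of Heart1 only. In limma on 4 sums (2 classes in 2 libraries, library as a block, 1 residual degree of freedom and a spread pooled over genes), Jund was higher in fibroblasts by 1.06 ± 0.16 on the log2 scale (adjusted p = 1.72e-06) and Jun by 0.76 ± 0.17 (adjusted p = 0.00049). Junb differed by 0.39 ± 0.18 and did not pass (adjusted p = 0.084). Without the 5% of cells of each class highest in the 10 genes, a setting added after seeing the data, Junb did pass (0.60 ± 0.18, adjusted p = 0.0117) and Fos was at -0.086 ± 0.28 (adjusted p = 0.842). Across all 8789 genes tested, 26.3% were higher in fibroblasts and 17.3% higher in macrophages, 43.6% in all. Of the 10 early response genes 4 were higher in fibroblasts and 3 in macrophages.

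Atf3, an ATF protein induced by many stresses that can repress or activate with Jun, showed the reverse pattern. It had 98.0 and 11.7 CPM in fibroblasts of Heart1 and Heart2, against 308 and 61.0 CPM in macrophages. Each library gave the same direction, and the fitted log2 difference was -1.79 ± 0.24 (limma, adjusted p = 2.52e-07).

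The other transcription factors were higher in fibroblasts. Egr1, a zinc finger factor induced by growth factors and stretch, had 561 and 170 CPM in fibroblasts of Heart1 and Heart2, against 115 and 24.8 CPM in macrophages. Nr4a1, a nuclear receptor without a known natural ligand, had 140 and 30.9 CPM in fibroblasts, against 17.3 and 4.96 CPM in macrophages. The macrophage values of Nr4a1 rest on 6 and 10 UMIs. Both genes were higher in fibroblasts in both libraries, Egr1 by 2.39 ± 0.22 and Nr4a1 by 2.27 ± 0.29 on the log2 scale (limma, adjusted p = 9.18e-11 and 1.17e-07). Egr1 was found in 68.6% and 31.8% of fibroblasts, against 21.6% and 6.37% of macrophages.

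The feedback genes gave a difference that rested on one library. Zfp36 encodes tristetraprolin, which binds AU-rich messages, among them those of inflammatory genes and early response genes, and speeds their decay. Ier3 is an early response gene that acts on cell survival. Ier3 had 243 and 38.8 CPM in fibroblasts of Heart1 and Heart2, against 207 and 212 CPM in macrophages. Zfp36 had 248 and 49.2 CPM in fibroblasts, against 245 and 143 CPM in macrophages. The counting intervals of fibroblasts and macrophages overlapped in Heart1, and fibroblasts were lower in Heart2. The fitted log2 differences of -1.04 ± 0.32 for Ier3 and -0.72 ± 0.25 for Zfp36 passed (limma, adjusted p = 0.00775 and 0.0207). Ier3 was at -0.25 ± 0.28 (adjusted p = 0.525) without the 5% of cells of each class highest in the 10 genes, and its adjusted p was 0.0604 with a pseudocount of 1, 0.0693 with no filter, 0.118 with median ratio scaling and 0.131 after thinning. Zfp36 missed the threshold with a pseudocount of 1 or 20, with no filter, with median ratio scaling, without doublets, with a gate by share of markers and after thinning (adjusted p = 0.0622, 0.0511, 0.0664, 0.0998, 0.0533, 0.0521 and 0.172). It also missed without the library block (adjusted p = 0.470). It passed without the 5% of cells highest in the 10 genes (-0.84 ± 0.24, limma, adjusted p = 0.00798). A mean of at least 50 CPM and totals without mitochondrial genes and the 10 genes also left it passing (adjusted p = 0.0144 and 0.0145). Taken within a library, the difference of Ier3 was 0.23 in Heart1 and -2.31 in Heart2, and that of Zfp36 0.019 in Heart1 and -1.45 in Heart2.

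The other lists of the pathway are read against the 26.3% and 17.3% of all genes that were higher in fibroblasts and in macrophages. Of 17 other AP-1 and ATF genes that passed the filter, 3 were higher in fibroblasts and 3 in macrophages. Atf5, a stress-response ATF gene, had 176 and 189 CPM in fibroblasts and 5.76 and 16.4 CPM in macrophages (log2 difference 3.63 ± 0.27). Batf3, an AP-1 protein of dendritic and other immune cells, was at 0 in fibroblasts of both libraries and had 49.0 and 38.7 CPM in macrophages. Of 41 other early response genes, 13 were higher in fibroblasts, led by Ctgf and Cyr61, and 8 higher in macrophages. Of 18 upstream kinases and serum response factor genes, 1 was higher in fibroblasts and 4 in macrophages, among them Mapk14, which encodes the stress kinase p38 alpha, with 22.0 and 28.2 CPM in fibroblasts and 101 and 115 CPM in macrophages.

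Most of the 10 genes were higher in Heart1 than in Heart2. Of the 10 early response genes, 9 were at least 2-fold higher in Heart1 than in Heart2 fibroblasts, against 2.38% of all 8606 genes that passed the filter, and none was 2-fold lower, against 1.5% of all. In macrophages 6 of 10 were higher, against 3.97% of 7756 genes, and none was 2-fold lower, against 4.14% of all. With 1 library each and no comparison group, this difference has no replicate check and no test. The ratio of Heart1 to Heart2 in fibroblasts was highest for Atf3 (8.38, 6.62 to 10.7), with Fosb at 6.37, Ier3 at 6.27, Fos at 6.00, Zfp36 at 5.05, Nr4a1 at 4.53, Junb at 4.48, Egr1 at 3.31 and Jun at 2.78. It was lowest for Jund, at 1.46 (1.41 to 1.52). In macrophages the ratio was 5.06 for Atf3, 4.65 for Egr1, 3.93 for Fos, 3.70 for Jun, 3.49 for Nr4a1 on few UMIs, and 2.47 for Junb. It was 1.71 for Zfp36, 1.49 for Fosb, 1.06 for Jund and 0.98 for Ier3. Jund was the least different member in fibroblasts and near 1 in macrophages, and Ier3 was near 1 in macrophages while it differed by 6.27-fold in fibroblasts. The Ier3 values in macrophages rest on few cells: 2 Heart1 cells held 70.8% of its UMIs and 10 Heart2 cells 81.7%. Without the 5% of cells of each class highest in the 10 genes, 9 of 10 were at least 2-fold higher in Heart1 macrophages, and 9 in Heart1 fibroblasts. The share of all genes 2-fold apart was not counted in that setting. Cdkn1a had 236 and 150 CPM in fibroblasts of Heart1 and Heart2 (ratio 1.58) and 311 and 151 CPM in macrophages (ratio 2.06, 1.64 to 2.58). Cdkn2b had 47.3 and 8.80 CPM in fibroblasts (ratio 5.38) and 25.9 and 15.9 CPM in macrophages (ratio 1.63, 0.686 to 3.50).

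Some heat shock genes moved with this difference. Of 14 heat shock genes, 4 were at least 2-fold higher in Heart1 fibroblasts and 6 in Heart1 macrophages, and 0 were 2-fold lower in either class. The others were less than 2-fold apart, among them Hspa8, with a ratio of Heart1 to Heart2 of 1.02 in fibroblasts and 0.93 in macrophages. Hspa5 was at 1.13 and 0.80. Hspa1a, the stress-induced Hsp70 gene, had 1255 CPM in Heart1 fibroblasts and 171 CPM in Heart2 fibroblasts, and 2066 and 90.2 CPM in macrophages. Of 39 other early response genes, 14 were at least 2-fold higher in Heart1 fibroblasts and 0 lower, and of 37 in macrophages 10 were higher and 2 lower. None of 16 upstream kinase and serum response factor genes was 2-fold apart, and 1 of 15 other AP-1 and ATF genes was, namely Maff. The median mitochondrial share was lower in Heart1, at 3.35% of fibroblast UMIs, against 5.18% in Heart2. The part of heat shock and of the mitochondrial share in the library difference was not tested.

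The levels also differed between fibroblast subsets within a library. Cells with at least 2 UMIs of Wif1 or Coch, secreted proteins of valve fibroblasts, summed to 16328 CPM over the 10 genes in Heart1 (36 cells, interval 15960 to 16702), against 6279 CPM for all Heart1 fibroblasts. In Heart2 they summed to 3405 CPM (8 cells), against 2208 CPM for all. Cells with Thbs4 or Comp had 7227 CPM in Heart1 (70 cells) and 2664 CPM in Heart2 (48 cells). Cells with Pi16 or Dpp4 had 5442 CPM (174 cells) and 2222 CPM (778 cells), and cells with Inmt or Osr1 4709 CPM (30 cells) and 2717 CPM (183 cells). Cells in none of the subsets had 6232 CPM in Heart1 (7 cells) and 4269.5 CPM in Heart2 (21 cells), the highest level of that library. Cells with Hsd11b1 or Ccl11 had the lowest levels in both libraries, 3979 CPM (74 cells) and 1913 CPM (692 cells). Summed over the 10 genes, every subset was higher in Heart1 than in Heart2, but single genes could go the other way. In cells in none of the subsets, Fos had 295 CPM in Heart1 and 714 CPM in Heart2, and Junb 1034 and 1262 CPM. Fosb had 4.86 CPM in Heart1 (2 UMIs) and 28.7 CPM in Heart2 in cells with Inmt or Osr1. Wif1 or Coch cells were 36 of 204 fibroblasts in Heart1 and 8 of 931 in Heart2. Without them the 10 genes summed to 4211 CPM in Heart1 and 2194 CPM in Heart2, with 7 of 10 genes at least 2-fold apart. The share of all genes 2-fold apart was not counted without these cells.

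**Figure D2:**
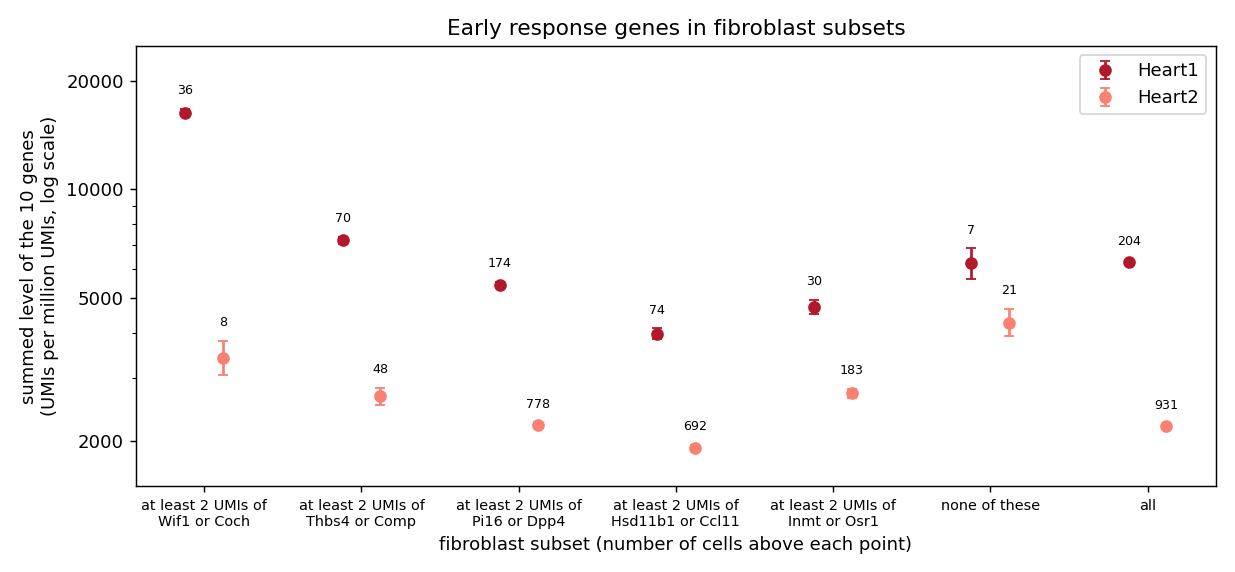
Summed level of the 10 genes in CPM (log axis) in fibroblast subsets of each library, with exact 95% Poisson intervals and the number of cells above each point; a cell that meets 2 gates counts in both. Wif1 or Coch cells of Heart1 sit highest at 16328 CPM, and in each subset Heart1 lies above Heart2.

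The RNA of these genes was concentrated in few cells. The 5% of cells with most of it held 30.3% of the UMIs of the 10 genes in Heart1 fibroblasts and 29.7% in Heart2 fibroblasts, and 36.0% and 45.7% in macrophages. For Fos in Heart2 fibroblasts, 47 cells held 84.9% of all UMIs, while for Jund the same number of cells held 17.6%. Counting intervals are therefore narrower than the spread between cells.

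The 10 genes were positively correlated from cell to cell. Over the 45 pairs, the median Pearson r of ln(1 + UMIs per 10000) was 0.495 in Heart1 fibroblasts (204 cells) and 0.309 in Heart2 fibroblasts (931 cells), and all 45 were above 0 in both. In macrophages it was 0.390 in Heart1 (37 cells) and 0.299 in Heart2 (204 cells), with 42 of 45 above 0 in Heart2. The median r of a member with any other gene detected in at least 10% of cells was between -0.024 and -0.002. Cells of 1 library share their preparation and differ in depth, so these values are a description. The highest pairs in fibroblasts were Fos with Junb, at 0.758 in Heart1 and 0.554 in Heart2, Junb with Egr1, at 0.747 and 0.579, and Fos with Egr1, at 0.724 and 0.529. The lowest pairs in Heart1 fibroblasts were Jund with Nr4a1 (0.142) and Jund with Ier3 (0.164). In macrophages the leading pairs were Egr1 with Atf3 (0.743) in Heart1 and Junb with Zfp36 (0.597) in Heart2. Jun with Nr4a1 (-0.031), Jun with Atf3 (-0.031) and Fos with Nr4a1 (-0.0089) were below 0 in Heart2 macrophages. Nr4a1 had 10 UMIs in 5 of those 204 cells. After thinning to 3000 UMIs the median over pairs was 0.350 and 0.201 in fibroblasts of Heart1 and Heart2, and 0.337 and 0.135 in macrophages.

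**Figure D3:**
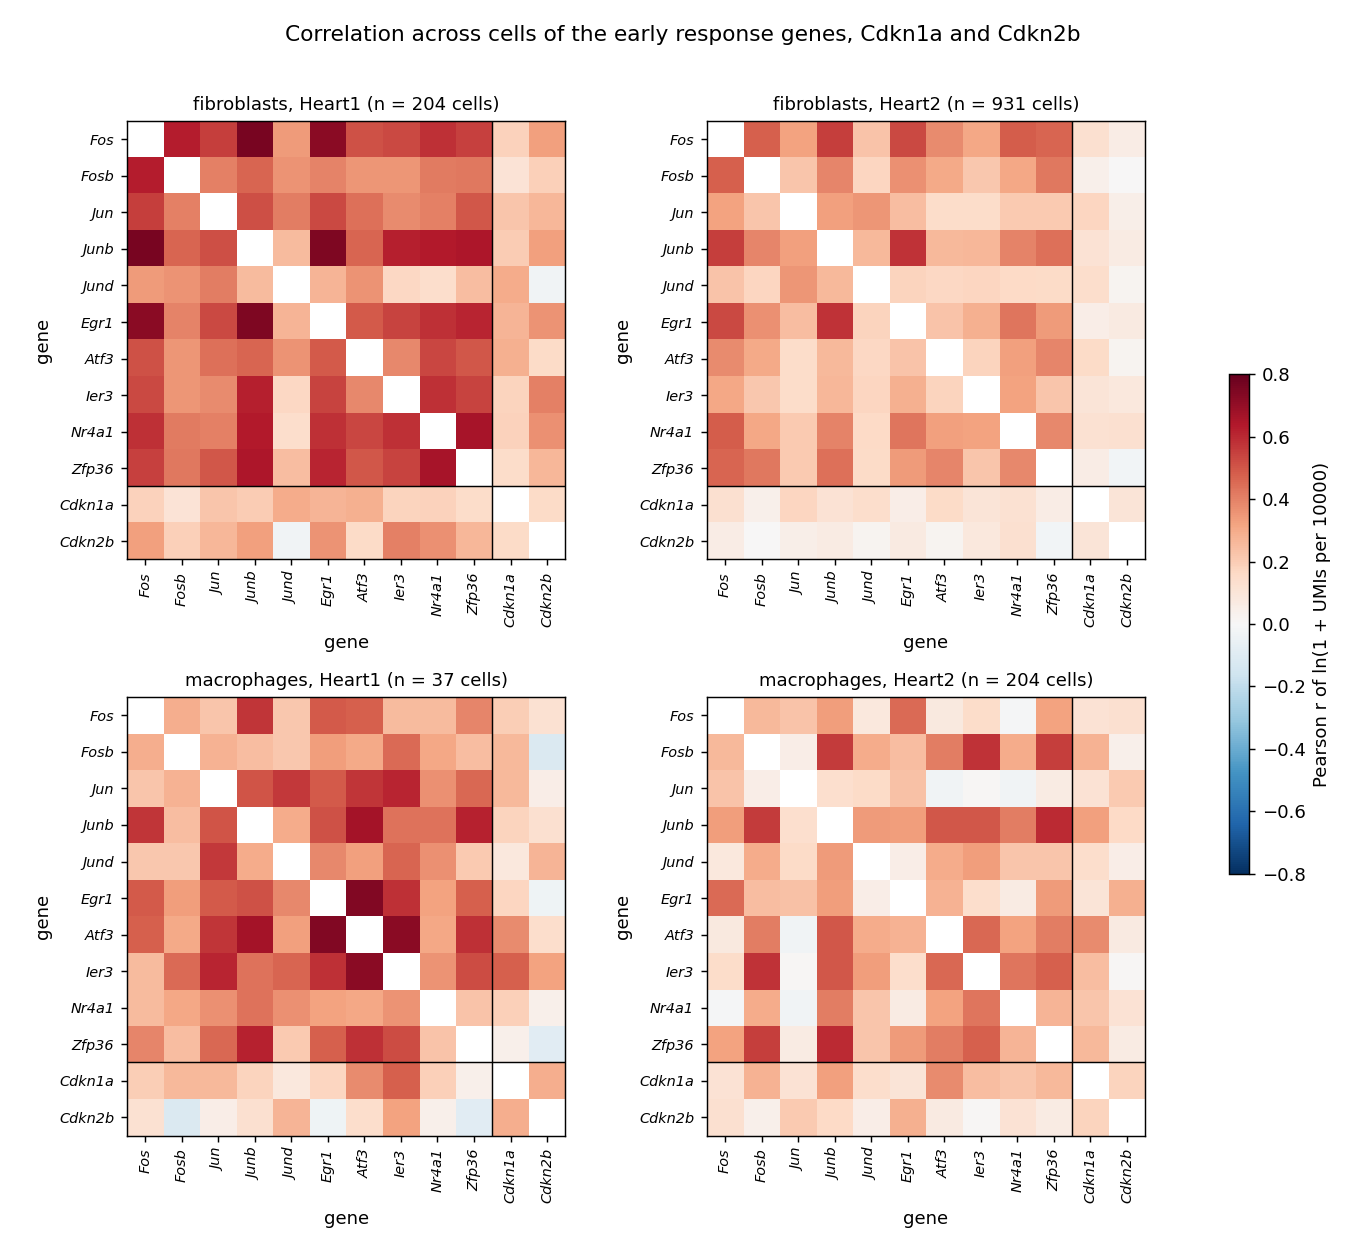
Pearson r across cells between the 10 early response genes, Cdkn1a and Cdkn2b, in each class and library; colour runs from -0.8 to 0.8, and lines set off Cdkn1a and Cdkn2b. All 45 pairs of early response genes are above 0 in 3 panels and 42 of 45 in Heart2 macrophages, and their medians lie above those with Cdkn1a and Cdkn2b in each panel.

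Correlations with the cell cycle inhibitors were weaker. The median r of the 10 genes with Cdkn1a was 0.195 in Heart1 fibroblasts and 0.120 in Heart2 fibroblasts, and 0.191 and 0.234 in macrophages, and all 10 were above 0 in each of these 4 sets. For all other genes detected in at least 10% of cells, the median r with Cdkn1a was between 0.003 and 0.030. Jund (0.297) and Atf3 (0.283) had the highest r with Cdkn1a in Heart1 fibroblasts, and Ier3 (0.477) and Atf3 (0.376) in Heart1 macrophages. With Cdkn2b the median was 0.296 in Heart1 fibroblasts but 0.053 in Heart2 fibroblasts, led in Heart1 by Ier3 (0.401) and Nr4a1 (0.366).

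The genes most like the 10 were mostly other early response and heat shock genes. Genes were ranked by the lower of their r values in the 2 libraries with the sum of the 10 ln values. In fibroblasts, among 7889 genes, the leading ones were Ier2 (0.757 in Heart1 and 0.589 in Heart2), which encodes an early response nuclear protein, Btg2 (0.641 and 0.487), an antiproliferative p53 target, Gadd45g, Hspa1a (0.696 and 0.399), Hspa1b, Cxcl1, Socs3, Nfkbiz, Cyr61 and Dusp1. Cdkn1a ranked 32 of these. In macrophages, among 6651 genes, they were Dusp1 (0.658 and 0.680), a phosphatase of stress kinases, Tnfaip3 (0.784 and 0.530), a brake on NF-kappaB, Ppp1r15a, Phlda1 and Ier5, with Cdkn1a at rank 21.

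Fibroblasts with a Cdkn1a UMI had more of 7 of the 10 early response genes. Cells were thinned to 3000 UMIs, so that depth did not set who had a UMI, which gave 57 fibroblasts with and 147 without Cdkn1a in Heart1, and 170 with and 761 without in Heart2. In limma on the 4 sums with library as a block, 47 of 8620 genes (0.545%) were higher with Cdkn1a and 22 (0.255%) lower, Cdkn1a itself left out. The 7 were Atf3, Zfp36, Fos, Jun, Junb, Egr1 and Jund. Atf3 had 228 CPM with Cdkn1a and 54.4 CPM without it in Heart1, and 33.3 CPM with it and 2.19 CPM without it in Heart2, a log2 difference of 2.19 ± 0.34 (adjusted p = 1.37e-07). The Heart2 values of Atf3 rest on 17 and 5 UMIs. Zfp36 had 427 CPM with and 159 CPM without Cdkn1a in Heart1, and 108 CPM with and 29.8 CPM without it in Heart2, a difference of 1.55 ± 0.22 (adjusted p = 6.97e-09). Fos had 1363 CPM with and 624 CPM without Cdkn1a in Heart1, and 227 CPM with and 93.7 CPM without it in Heart2, a difference of 1.18 ± 0.16 (adjusted p = 1.01e-10). These are summed levels. A Fos UMI was found in 45.6% of cells with and 42.2% without Cdkn1a in Heart1, and in 14.7% and 8.15% in Heart2. For Zfp36 the shares were 19.3% and 16.3% in Heart1 and 9.41% and 6.83% in Heart2. For Atf3 they were 24.6% and 8.84% in Heart1 and 5.88% and 0.657% in Heart2.

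The differences of the Jun genes were smaller. Jun differed by 0.83 ± 0.13, Junb by 0.79 ± 0.13 and Jund by 0.44 ± 0.11 on the log2 scale (limma, adjusted p = 7.97e-08, 3.27e-07 and 0.0103). Each was higher with Cdkn1a in both libraries. Jund missed the threshold with all UMIs and with the Cdkn1a state and the levels taken from separate UMIs (adjusted p = 0.0542 and 0.0501), and Egr1 with a pseudocount of 1 (adjusted p = 0.0608). Egr1 differed by 0.58 ± 0.16 (adjusted p = 0.0485), and this rested on Heart1, with 883 CPM with Cdkn1a and 438 CPM without it, against 175 CPM with it and 157 CPM without it in Heart2. Fosb (0.61 ± 0.38), Nr4a1 (0.77 ± 0.29) and Ier3 (0.46 ± 0.25) did not pass (adjusted p = 0.781, 0.353 and 0.724). With another draw of the 3000 UMIs 9 of the 10 passed, Nr4a1 and Ier3 among them, while 32 of 8626 genes were higher. The fit pools its spread over all genes, with infinite prior degrees of freedom and 1 residual one, so a gene whose UMIs sit in few cells can pass. Without the 5% of fibroblasts highest in the 10 genes, also added after seeing the data, 32 of 8613 genes were higher with Cdkn1a. Of the 10 early response genes, 2 passed. These were Jun (0.60 ± 0.14) and Atf3 (1.59 ± 0.40), and Zfp36 was then at -0.37 ± 0.33. Without the Wif1 or Coch cells 5 of the 10 passed, while 43 of 8584 genes were higher. Without the library block 0 of the 10 and 0 of 8620 genes passed.

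**Figure D4:**
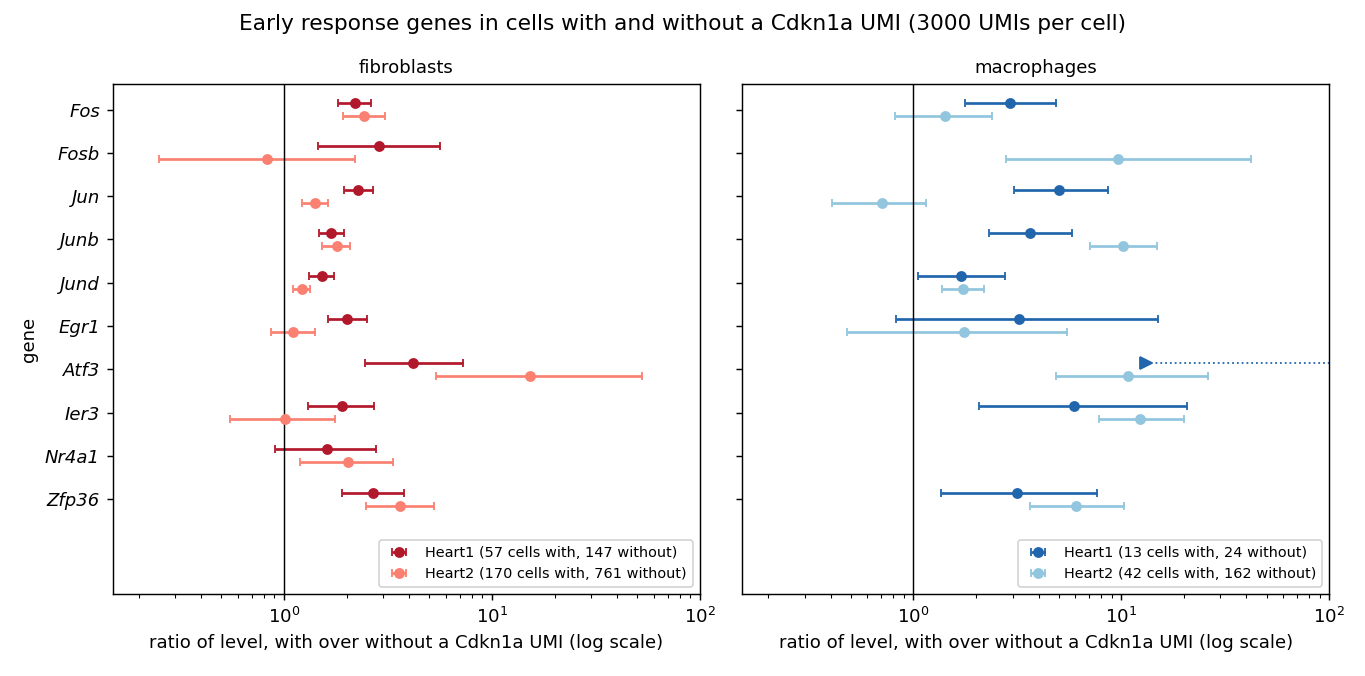
Ratio of each gene's level in cells with over cells without a Cdkn1a UMI (log axis, every cell thinned to 3000 UMIs), by library and class, with exact 95% intervals for counting error; the triangle is a lower bound and genes with 3 UMIs or fewer in both sets of cells are not drawn. Atf3 lies at 4.19 in Heart1 fibroblasts and at 15.2 in Heart2 fibroblasts, the latter on 17 and 5 UMIs (5.39 to 52.8). Egr1, Ier3 and Fosb of Heart2 fibroblasts lie near 1.

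Other early response genes and some heat shock genes were also higher with Cdkn1a. Of 39 other early response genes 7 were higher with Cdkn1a and 0 lower, among them Btg2 (1.39 ± 0.23), the cytokine signalling inhibitor Socs3 (1.30 ± 0.30) and Gadd45g (1.02 ± 0.25). Of 14 heat shock genes 3 were higher: Dnajb1, Hspa1a and Hspa8. Hspa1a had 2018 CPM with and 912 CPM without Cdkn1a in Heart1, but 180.4 CPM with and 176 CPM without it in Heart2. Of 14 secreted and matrix genes with known AP-1 control, Timp1 (1.42 ± 0.19) and Ccl7 were higher and Mmp3 (-1.14 ± 0.19) lower. Ccl7 rested on Heart1, with a difference of 2.57 there and 0.26 in Heart2, as did Hspa8, with 0.79 and 0.056. None of 15 other AP-1 and ATF genes or 16 upstream kinase and serum response factor genes passed. The median log2 difference was 0.78 over the 10 genes and 0.025 over all genes. The median mitochondrial share was close in cells with and without Cdkn1a, at 3.10% and 3.55% in Heart1 and 4.81% and 5.24% in Heart2.

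In macrophages the cells with Cdkn1a were too few for a test, with 13 of 37 in Heart1 and 42 of 204 in Heart2. Summed over the 10 genes, they had 7000.0 CPM with and 1944 CPM without Cdkn1a in Heart1, a ratio of 3.60 (2.93 to 4.45), and 3349 and 1056 CPM in Heart2, a ratio of 3.17 (2.78 to 3.62). In Heart2 the ratio was 12.3 for Ier3, 10.7 for Atf3, 10.2 for Junb and 6.08 for Zfp36, but 0.705 for Jun (0.408 to 1.16). These high ratios rested on few cells: before thinning, 10 Heart2 macrophages held 81.7% of Ier3, 80.5% of Atf3, 77.2% of Junb and 70.2% of Zfp36 UMIs. The shares of cells with a UMI, with against without Cdkn1a, were 31.0% and 13.6% for Ier3 and 21.4% and 4.32% for Atf3. They were 40.5% and 18.5% for Junb and 23.8% and 11.7% for Zfp36. In Heart1 the ratio was 5.03 for Jun (3.04 to 8.62). For Atf3 in Heart1, 28 UMIs lay in cells with Cdkn1a and 0 in cells without it. The Heart1 values rested on few cells as well: before thinning, 2 Heart1 macrophages held 64.1% of Jun and 54.2% of Atf3 UMIs. Jun was found in 61.5% of Heart1 macrophages with Cdkn1a and 50% of those without, and Atf3 in 46.2% and 0%.

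The share of fibroblasts with Cdkn1a was higher in bins of cells with more early response genes detected, with intervals that overlapped. Among fibroblasts with 0 to 3, 4 to 6 and 7 to 10 of the genes, 23.5%, 28.0% and 44.4% of Heart1 cells (102, 75 and 27 cells) and 17.0%, 24.3% and 35.0% of Heart2 cells (796, 115 and 20 cells) had a Cdkn1a UMI. The intervals of the outer bins overlapped in Heart1 (15.7 to 33.0% and 25.5 to 64.7%) and in Heart2 (14.4 to 19.7% and 15.4 to 59.2%). Among macrophages with 0 to 3 and 4 to 6 genes, 5 of 23 and 5 of 11 cells had a Cdkn1a UMI in Heart1, and 29 of 178 and 12 of 24 in Heart2. The top bin held 3 and 2 macrophages. Heat shock genes summed to 5183, 9400.0 and 16444 CPM across the fibroblast bins of Heart1 and to 4604, 6232 and 8250.0 CPM across those of Heart2. The part of heat shock in the Cdkn1a shares was not tested.

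**Figure D5:**
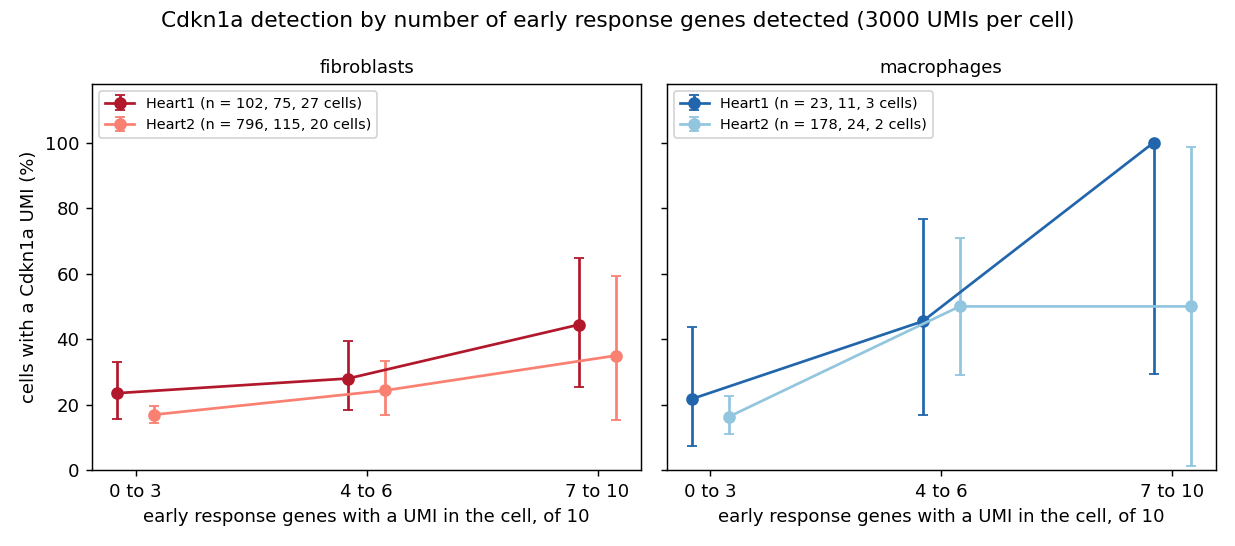
Share of cells with a Cdkn1a UMI (percent, every cell thinned to 3000 UMIs) by the number of the 10 early response genes with a UMI in the cell, with exact 95% binomial intervals. In fibroblasts the share goes from 23.5% to 44.4% across the bins of Heart1 and from 17.0% to 35.0% across those of Heart2, and the intervals of neighbouring bins overlap.

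Levels of the 10 genes were also compared between cells with and without a Cdkn2b UMI, as values without a test. The 26 Heart1 fibroblasts with a Cdkn2b UMI had 10974 CPM of the 10 genes, against 5195 CPM in the 178 without (ratio 2.11, 1.95 to 2.28). In Heart2 the 23 cells with it had 2478 CPM, against 2056 CPM in the 908 without (ratio 1.21, 1.03 to 1.40). Junb (3.01) and Ier3 (3.50) had high ratios in Heart1, and Junb was at 0.883 (0.520 to 1.40) in Heart2. Nr4a1 was at 2.28 in Heart1 and 2.74 in Heart2 (0.864 to 6.70), and Jund at 1.22 and 1.33. In Heart2 macrophages the 10 cells with Cdkn2b had 2833 CPM, against 1460.5 CPM in the 194 without (ratio 1.94, 1.53 to 2.43). No thinned macrophage of Heart1 had a Cdkn2b UMI. The difference between the libraries was not tested.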

How the data were processed

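Heart cells were profiled with the 10x Genomics 3′ v3 kit, and Cell Ranger 3.0.2 and the build mm10 (GRCm38) were used, per the submitters' processing notes. What normalized the values is not given in the sources used here. As deposited by the authors, there was 1 table of natural log values, ln(1 + UMIs per 10000), for 15247 genes in 1426 cells. All 4459440 values above 0 were whole multiples of 1 UMI within 1e-06, so UMIs were recovered, and 0 columns were left out. Which sample record each library is was not stated in cell names, and titles carry a number that looks like a date, and nothing in the labels says what it marks.

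UMIs were summed per library and class and tested with limma 3.58.1 (R 4.3.3) on log2(CPM + 5), with library as a block and a trend of variance on mean. P-values were adjusted by Benjamini-Hochberg over genes with a mean of at least 10 CPM. Both classes, and both Cdkn1a states, come from the same library, which is where the pairing comes from. The pseudocount shrinks the fold changes of low genes. A call is an adjusted p under 0.05 or, between libraries, a 2-fold ratio. The limma step was also run on simulated sums with the same spread for every gene. That simulation does not cover genes whose UMIs sit in few cells. Doublets were predicted per library with scrublet in scanpy 1.11.5 and kept. Intervals are exact (Poisson, Clopper-Pearson or conditional). Named genes are the 10 genes, Cdkn1a, Cdkn2b, up to 3 genes of each list with the largest passing difference and the genes most correlated with the 10 in both libraries; others were named after their values were seen. TGACG and TGACATCA were added with the sequences in view. The members and lists were chosen with earlier results of these data known.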

Additional observations from a re-analysis of the deposited data

Results flagged for a closer look

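Signal of the 10 early response genes was present in cells that entered no comparison. The 25 cells of Heart1 outside both gates, or inside both, summed to 4439 CPM over the 10 genes (interval 4193 to 4696), and the 25 such cells of Heart2 to 1373 CPM (1247 to 1507). A count of 3 UMIs would be 10.97 and 9.36 CPM in these sets. At least 2 endothelial markers were found in 6 and 9 of these cells and at least 2 T cell markers in 9 and 1, and 8 and 2 of the cells were predicted doublets. Atf3 stood at 578 CPM in the Heart1 cells and at 31.2 CPM in the Heart2 cells.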

How the results depend on the processing

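The limits are 2 libraries of 1 group, 37 macrophages in Heart1, and UMIs of these genes that sit in few cells. Leaving out a library changes the direction of 4 class differences: Ier3 ranged from -2.31 to 0.23 and Zfp36 from -1.45 to 0.019, and of those that did not pass, Fosb from -0.64 to 1.14 and Junb from -0.036 to 0.82. Zfp36 was also at -0.37 for cells with against without Cdkn1a once the 5% of fibroblasts highest in the 10 genes were left out. There 2 of the 10 passed, while 32 of 8613 genes were higher. That setting was chosen after seeing the data. Between the classes, 1 of the 10 in place of 3 was higher in macrophages with a pseudocount of 1, with no filter, with median ratio scaling and after thinning to 3000 UMIs. In these settings 1448 of 8789, 1838 of 15158, 1499 of 8745 and 1068 of 8801 genes were higher in macrophages. A mean of at least 50 CPM left 963 genes higher in fibroblasts and 727 in macrophages, since fewer genes were tested, and thinning left 1535 higher in fibroblasts. Without the replicate block, 2 of the 10 (Jund and Nr4a1) were higher in fibroblasts and 0 in macrophages, against 1777 and 1265 of 8789 genes. Median ratio scaling moved the median class difference of all genes to 0.074, against 0.158, and 54.7% in place of 60.3% of called genes were higher in fibroblasts. For Cdkn1a, all UMIs gave 79 genes higher and 40 lower, and taking the Cdkn1a state and the levels from separate UMIs of a cell gave 113 and 92. Without the replicate block limma called 0 genes higher, 0 lower and 0 of the 10, with 79 higher and 38 lower at an unadjusted p under 0.05; the cause was not tested. Shares of macrophages with a UMI, as the median over the 10 genes, were 23.0% in Heart1 and 15.7% in Heart2 after thinning, against 45.9% and 31.6% with all UMIs. Median correlations over pairs moved to 0.350 in Heart1 fibroblasts and 0.135 in Heart2 macrophages after thinning, and to 0.278 and 0.186 in macrophages of Heart1 and Heart2 as Spearman rho, with 0.189 in Heart2 fibroblasts. In thinned Heart2 macrophages 36 of 45 pairs were above 0. Those with Cdkn1a in macrophages moved to 0.238 (Heart1) and 0.179 (Heart2) after thinning, 0.151 (Heart1) without doublets and 0.157 (Heart2) as rho. Those with Cdkn2b in macrophages moved to 0.124 (Heart1) and 0.080 (Heart2) as rho, 0.098 (Heart1) with depth and mitochondrial share regressed out, 0.112 (Heart1) without doublets and 0.074 (Heart2) after thinning. In fibroblasts, those with Cdkn2b were 0.194 (Heart1) after thinning and 0.025 (Heart2) with depth and mitochondrial share regressed out. With Cdkn2b no value could be had in Heart1 macrophages after thinning, since 0 cells kept a UMI.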

Other observations

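Secreted and matrix genes with known AP-1 control differed between the libraries too, as values of 1 library each, named after their values were seen. In fibroblasts, Timp1, an inhibitor of matrix metalloproteinases, had 566 CPM in Heart1 and 91.6 CPM in Heart2, the matricellular gene Spp1 213 and 35.4 CPM, and the prostaglandin synthase gene Ptgs2 81.6 and 6.39 CPM. Plau, which encodes urokinase, went the other way, with 6.34 CPM in Heart1 and 25.6 CPM in Heart2. In macrophages the neutrophil chemokine gene Cxcl2 had 49.0 CPM in Heart1 and 586 CPM in Heart2, while Spp1 had 259 CPM in Heart1 and 11.9 CPM in Heart2.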
